A study of Homo sapiens with 4 samples.

Results

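Crosslinking of PR100-FLAG to the transcripts of 56 genes of the nuclear pore and of nuclear transport was measured by iiCLIP in HEK293T cells, a transformed human embryonic kidney line. The genes were listed by function, as nucleoporins, genes of the Ran cycle, importins, exportins and an mRNA export receptor. The list was made with earlier results of these data known, so it was not blind to their counts. All 56 were found among the 20033 protein-coding genes of the annotation that were counted. All 4 libraries belonged to 1 condition: cells transiently transfected with a plasmid for PR100, a dipeptide of proline and arginine repeated 100 times with a triple FLAG tag, in which 150 ng/ml doxycycline induced expression for 24 h before irradiation at 160 mJ/cm2 and 254 nm. The peptide was therefore overexpressed and tagged in transfected cells. SDS-PAGE was used to purify the complexes of peptide and RNA in replicates 1, 2 and 3, and beads in replicate 4. The cells without crosslinking, with the FLAG tag alone or with GA100 were not analysed here, so no count below has a control beside it and no comparison between conditions was made. The labels do not say that the replicates were separate cultures, so the p-values speak only of these libraries. They come from flipping the signs of the library values. With 4 values of the same sign the test gives its smallest p, whatever their spread.

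The nuclear pore complex is the channel through which proteins and RNA pass between the nucleus and the cytoplasm. A scaffold of ring complexes, which includes the Y complex and the inner ring, holds nucleoporins with Phe-Gly repeats in the central channel, while filaments on the cytoplasmic face and a basket on the nuclear face serve as docking sites. Importins and exportins carry cargo through the channel and are loaded or unloaded by the small GTPase RAN, whose GTP-bound form is made in the nucleus by RCC1 and consumed at the cytoplasmic face with the help of RANGAP1. Arginine-rich dipeptides of the C9orf72 repeat expansion are known for their effects on nucleocytoplasmic transport, and the libraries allow the transcripts of this machinery to be examined for crosslinks.

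In iiCLIP, the peptide residue left on the RNA halts the reverse transcriptase, and each unique cDNA thereby marks the nucleotide just upstream of its start. Each such cDNA is called an event here. The authors also called clusters of significant positions, and 55 clusters of the pooled libraries lay in 21 of the 56 genes. The sequences under 7 of the 8 clusters with the most events are shown first, since they show what kind of RNA the tallest stacks fall on. Each is 30 nt of the RNA strand as in the hg38 genome, from 5 nt upstream of the position with the most events to 24 nt downstream, and capitals mark the motif GANGA, with any base but T as its N, searched on the RNA strand.
RCC1 intron, inside SNHG3 and SNORA73A, 74 events, chr1:28507508-28507537, plus strand: ttcctacagcttcccagagtcctgtcgaca
IPO5 intron, 72 events, chr13:97976265-97976294, plus strand: ccccagcccaggcctcgacctcgacctcaa
RCC1 intron, inside SNHG3, 59 events, chr1:28508552-28508581, plus strand: gagcattccaacgtggataccctgggaggt
TPR coding sequence, exon 23 of 51, 26 events, chr1:186346144-186346173, minus strand: gatgataaaaGAAGAgccatagagagcatg
KPNA4 intron, inside SCARNA7, 25 events, chr3:160515060-160515089, minus strand: atggaaagggggcactgactggtgatgctg
TNPO2 intron, 25 events, chr19:12703602-12703631, minus strand: ccacattgggatgtattcgtactgtctgat
TPR coding sequence, exon 18 of 51, 21 events, chr1:186353719-186353748, minus strand: gattatcaatacgatgactcaagatttgag
Of these 7 windows as printed, 1 holds GAAGA, and 3 lie inside another annotated gene on the same strand. The next 4 were chosen after their values were seen, from coding clusters with more than 1 GANGA in the printed window.
RANGAP1 coding sequence, exon 11 of 16, 19 events, chr22:41254426-41254455, minus strand: gGAAGAAGAGGAagcaGAAGAAGAGGAGGA
XPO1 coding sequence, exon 14 of 25, 14 events, chr2:61492589-61492618, minus strand: tggagcaatgcatGAAGAGGACGAaaaacg
IPO7 coding sequence, exon 23 of 25, 12 events, chr11:9440453-9440482, plus strand: aGAGGAactggggagtgatGAAGAtgatat
RANBP2 coding sequence, exon 21 of 29, 10 events, chr2:108771845-108771874, plus strand: attatgttagtGAAGAAGAGGAGGAtggta
In all 4, the position with the most events was in an exon of the canonical transcript. Exons were numbered along that transcript.

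CPM below are events scaled to the total of the library. The libraries held 334057, 604816, 125694 and 179636 events in replicates 1 to 4. The 56 genes took 1993, 3299, 630 and 1205 of them, which was 0.579% ± 0.0728 (SD, n = 4) of a library. By these deposited counts, replicates 3 and 4 lay below the minimum depth for a library that the paper's methods state. The methods report that 4 samples met that minimum, and the reason for the difference was not examined. Both libraries were used. Replicate 3 had the lowest depth and a shorter random barcode than the others, and 9 of the 56 genes had no event in it, while every gene had at least 1 event in each of replicates 1, 2 and 4. Replicate 4 differed from the others in purification, so its method and its values cannot be told apart. Of genes listed as markers, NEFM, NEFL and LIN28B, for HEK293T cells, had 1426, 165 and 99 pooled events. PTPRC of blood cells, ALB of liver and MYH7 of muscle had 10, 2 and 2. These are crosslink counts and not expression. The paper names NEFM among the RNAs with the most PR100 crosslinks, so the counts do not check the identity of the cells.

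Most transcripts of the transport machinery carried more crosslinks than a typical protein-coding transcript. The median was 116.5 pooled events per gene, with a range of 3 to 403, against a median of 15 over all protein-coding genes and of 23 over those with any event. At least 100 events were found on 32 of the 56 genes (57.1%), against 12% of all protein-coding genes. At least 200 events, the minimum that the study set for a bound RNA, were found on 9 genes (16.1%), against 3.49% of all. The study also required little binding in cells without crosslinking and with the FLAG tag alone. That filter was not applied here, so these genes met only the minimum and not the study's full rule. At least 400 events were found on 1 gene (1.79%), TPR, against 0.619% of all. Counting exonic events alone, 3 genes (5.36%) reached 200, against 0.699% of all. The 9 genes were TPR, NUP62, IPO9, RCC1, KPNB1, XPO1, IPO5, NUP205 and RANBP2. Where positions shared with another gene on the same strand were left out, 7 reached 200, since NUP62 and RCC1 fell to 0 and 65 events. RANBP2 had 204 events just above this minimum, and IPO7 with 191 and NUP153 with 190 were just below it. Since the minimum is on the sum of the libraries, the count fell to 3 without replicate 1, to 1 without replicate 2, to 7 without replicate 3 and to 6 without replicate 4. The genes were also longer than average, with a median of 2.79 kb of coding sequence against 1.35 kb and 49.5 kb of intron against 22.3 kb. Per length, the medians were 13.6 pooled events per kb of coding sequence against 1.53, and 0.954 per kb of intron against 0.257. The RNA level of the genes was not measured, so more transcripts in the cells and more crosslinks per transcript cannot be told apart.

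**Figure D1:**
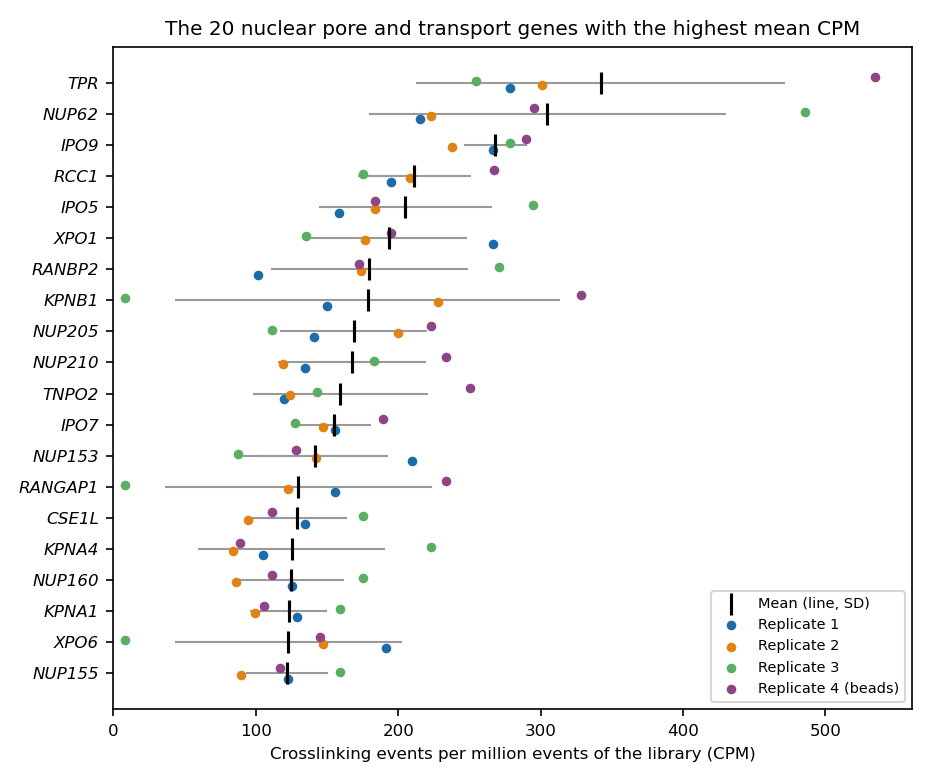
Events in CPM, the count scaled by the library total (x axis), of the 20 nuclear pore and transport genes with the highest mean CPM, with a point per library, the mean as a tick and the SD as a line. TPR in replicate 4 (534 CPM) and NUP62 in replicate 3 (485 CPM) stand above the other libraries, and KPNB1, RANGAP1 and XPO6 in replicate 3 (7.96 CPM each, from 1 event) stand below them.

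The nuclear basket held the nucleoporin with the most events. TPR, the coiled-coil protein that forms the basket filaments, had 93, 182, 32 and 96 events in replicates 1 to 4, or 278, 301, 255 and 534 CPM. Its mean was 342 ± 130 CPM (SD, n = 4), the highest of the 56, and replicate 4 stood above the other libraries. Of its 403 pooled events, 82.9% were in coding sequence and only 58 in introns, so that it held 45.6 events per kb of coding sequence and 1.12 per kb of intron. It also held 7 clusters, all of them in coding sequence, which as for KPNB1 was the highest number among the genes. NUP153, a basket nucleoporin with Phe-Gly repeats that anchors TPR, had 70, 86, 11 and 23 events, at 142 ± 50.8 CPM, of which 43.7% were in coding sequence. NUP50, a basket protein that binds importins, had 34, 34, 0 and 27 events, at 77.1 ± 64.2 CPM, and replicate 3 lay below the others.

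Every gene of the scaffold had fewer events than TPR. The 8 genes of the Y complex, which coats the membrane side of the pore, had 22 to 136 events with a median of 81.5, and none reached 200. NUP160 was the highest of them, with 42, 52, 22 and 20 events, and SEC13, which is shared with the COPII vesicle coat, was among the lowest with 10, 10, 1 and 3. NUP37 had 3, 17, 0 and 2 events, most of them in replicate 2, and its mean of 12.1 ± 11.7 CPM was 6.70 without that library. In the inner ring, which holds the central channel in place, NUP205 had 47, 121, 14 and 40 events, at 169 ± 51.5 CPM, and 60.4% of them were in coding sequence. NUP188, its structural relative, had 40, 48, 10 and 24 events, and 79.5% of its 122 events were in coding sequence against 19 events in introns. NUP155 of the same ring had 41, 54, 20 and 21 events, and its coding cluster of 11 events took 8 of them from 1 position in replicate 3. In the 3 membrane nucleoporins, introns took 65.8% of the events. NUP210, a transmembrane protein of the pore lumen, had 182 events, of which 120 were in introns and 55 in coding sequence.

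In the central channel, NUP62, the Phe-Gly protein at its core, had 72, 135, 61 and 53 events, or 216, 223, 485 and 295 CPM. However, the gene overlaps IL4I1 on the same strand, and 0 of its 321 events lay outside another annotated gene. NUP62 had 53.5 events per kb of coding sequence, the highest of the 56 genes. The 28 events of its intron cluster were all in replicate 3, the library in which it was highest. NUP58, a partner of NUP62, had 49, 71, 8 and 19 events, at 108 ± 34.4 CPM, with no overlapping gene. On the cytoplasmic face, RANBP2, the large filament protein that binds RAN and carries SUMO ligase activity, had 34, 105, 34 and 31 events. Coding sequence took 92.2% of its 204 events and introns 9 events. RANBP2 has near-identical copies in the RGPD family, and only uniquely mapped reads were kept, so its count is uncertain, as is that of POM121 with its paralogue POM121C. NUP214, a Phe-Gly nucleoporin of the same face, had 139 events at 105 ± 24.0 CPM, while AAAS had 3 events in all, the fewest of the 56, and its mean of 2.55 CPM was 1.55 without replicate 4.

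**Figure D2:**
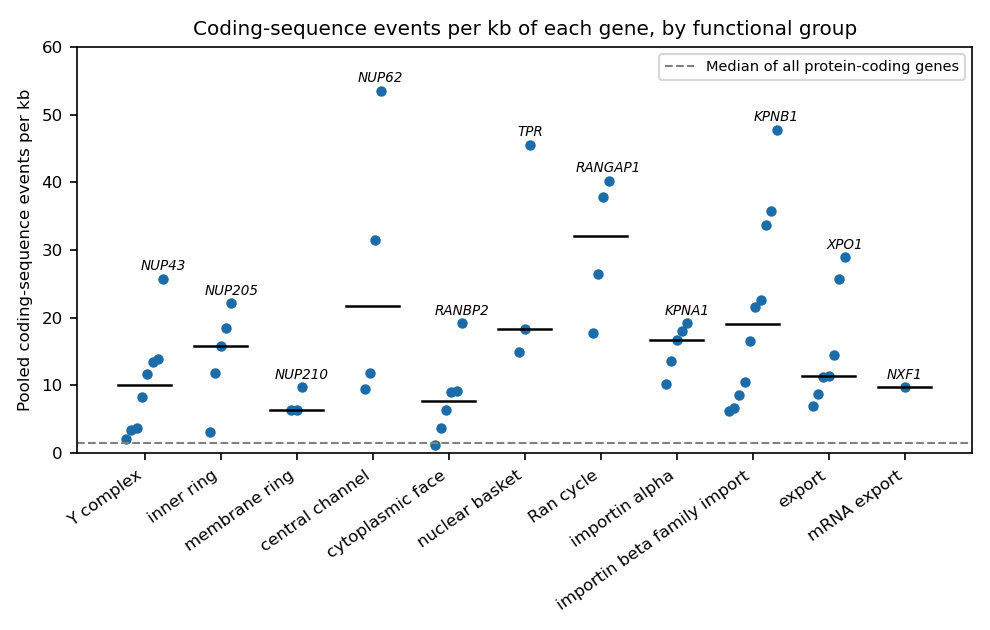
Pooled events per kb of coding sequence (y axis) of each of the 56 genes, by functional group, with a point per gene, the group median as a bar, the name of the highest gene in each group and the median of all protein-coding genes as a dashed line. Of the 56 genes, AAAS alone lies below that line of 1.53 events per kb.

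The 4 genes of the Ran cycle differed in level and in place. RCC1, the nucleotide exchange factor of RAN, had 65, 126, 22 and 48 events, at 211 ± 39.7 CPM. Of its 261 events 198 were in introns, and its largest clusters, of 74 and 59 events, lay in SNHG3, a host gene of small nucleolar RNAs on the same strand. Only 65 of its events (24.9%) lay outside another gene, which left 52.6 CPM. RANGAP1, the GTPase-activating protein at the cytoplasmic face, had 52, 74, 1 and 42 events. Its mean of 130 ± 93.8 CPM and its 40.2 events per kb of coding sequence both rested on replicates 1, 2 and 4, since the single event of replicate 3 was in an intron. RANBP1, a cofactor of RANGAP1, had 23, 36, 1 and 13 events, with 37.8 per kb of coding sequence. Of its 73 events 62 lay outside another gene. Its largest cluster, of 16 events and counted as coding, had its highest position inside SNORA77B and in no exon of the canonical transcript. RAN itself had 6, 8, 0 and 12 events, none of them in introns, and its mean of 24.5 ± 29.2 CPM was 10.4 without replicate 4. RAN has processed pseudogenes and reads that mapped to several places were dropped, so its count is uncertain.

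Importins of the beta family carried 1641 events on 10 genes, and 3 of these genes reached 200. IPO9, an importer of histones, had 89, 144, 35 and 52 events, or 266, 238, 278 and 289 CPM. At 268 ± 22.1 CPM the libraries lay close together, and 27.8% of its events were in the 3′ UTR and 36.9% in coding sequence. KPNB1, importin beta itself, had 50, 138, 1 and 59 events, at 179 ± 135 CPM, and replicate 3 lay far below the others. It held 47.8 events per kb of coding sequence, below NUP62 alone, and 7 clusters, of which 5 were in coding sequence. IPO7, an importer of ribosomal proteins and histones, had 52, 89, 16 and 34 events, at 155 ± 25.8 CPM. TNPO2, a transportin for RNA-binding proteins, had 40, 75, 18 and 45 events, and of its 5 clusters, which held 74 events, 1 was in coding sequence. The 5 genes of importin alpha, the adaptors that read classical localisation signals, had 39 to 142 events with a median of 117. Some importins overlapped other genes, and 0% of the events of IPO4, 39.4% of IPO11 and 53.0% of KPNA6 lay outside them. This share was 82.3% for KPNA4, 90.6% for IPO7, 94.4% for TNPO2 and 99.7% for IPO9. The largest cluster of IPO7, with 18 events, lay in an intron inside SNORA23.

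IPO5, an importer of ribosomal proteins and histones, had 53, 111, 37 and 33 events, or 159, 184, 294 and 184 CPM. A stack 5 nt long in an intron, at chr13:97976269-97976273, took 14, 28, 25 and 5 of them, 72 in all, which was 75.0% of its 96 intron events. It was present in each library, and no other gene overlapped it on this strand. The window of this stack, shown above, holds cctcgacctcga. Read in 1 frame these are codons of proline and arginine in turn, the unit that PR100 repeats. The motif CCNCGNCCNCGN was chosen after this window was seen and was searched on the RNA strand over 36 nt. Of the 55 clusters in these genes 1 held it, the stack itself, which was given in advance. On the chromosomes counted, 17 (0.313%) of 5423 clusters held it, this stack included. The sequence of the PR100 plasmid was not analysed here, and its part in the stack was not tested. Without the stack, an alternative chosen after seeing the data, IPO5 had 162 events and 126 ± 26.0 CPM in place of 205 ± 60.7, and fell below 200 events.

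Of the 7 exportins and related carriers, XPO1, the exporter of proteins with leucine-rich signals, had the most, with 89, 107, 17 and 35 events, at 193 ± 54.7 CPM. Its 44 events in the 5′ UTR were more than those of any other gene in the list, and 37.5% of its events were in coding sequence. XPO6, the exporter of actin, had 64, 89, 1 and 26 events, 127 of them in introns. CSE1L, which returns importin alpha to the cytoplasm, had 45, 57, 22 and 20 events, 52.1% in coding sequence. XPO5, the exporter of microRNA precursors, had 25, 51, 7 and 19 events, and XPOT, the exporter of transfer RNA, had 17, 30, 13 and 12. For XPOT, 9 of the 11 events of its coding cluster were at 1 position of replicate 3. NXF1, the mRNA export receptor, had 49 events, 20 in coding sequence.

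The nucleoporins and the transport receptors had coding densities that overlapped between libraries. The 29 nucleoporins had 13.3 ± 4.37 CPM per kb of coding sequence and the 22 receptors 14.8 ± 6.26 (SD, n = 4). The log2 difference was -0.13 ± 0.13 (exact permutation test of signs, two-sided, over 4 libraries, p = 0.25), lower for the nucleoporins in 3 of 4 libraries. It was -0.29 ± 0.15 where positions shared with another gene were left out and -0.28 ± 0.20 without the nucleoporin and the receptor with the most coding events, lower in 4 of 4 libraries in both. This test flips the signs of the library values, and the smallest p that it can give with 4 libraries is 0.13. Among the smaller groups, the nuclear basket with 27.6 ± 11.7 and the Ran cycle with 26.2 ± 17.3 CPM per kb of coding sequence were at the top by their sums, and their values overlapped between libraries. TPR alone had 38.6 ± 18.4 CPM per kb, against 14.8 ± 2.05 for NUP153 and 11.5 ± 9.71 for NUP50, and by the median gene the basket, with 18.4 pooled events per kb, was below the Ran cycle with 32.1, the central channel with 21.7 and the beta importins with 19.03. The membrane nucleoporins were lowest by both measures, with 6.26 ± 4.85 CPM per kb and a median of 6.42 events per kb. The Y complex had 8.01 ± 3.21 CPM per kb and a median of 10.0, and the cytoplasmic face 10.1 ± 2.14 and 7.75. The highest gene of the Y complex per coding length was NUP43.

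Over the whole gene, crosslinks were densest in coding sequence. The 56 genes had 10.5, 14.5, 9.98 and 22.0 CPM per kb of coding sequence in replicates 1 to 4, against 1.11, 0.722, 0.871 and 0.654 CPM per kb of intron. Coding density was thus above intron density in every library, by a log2 ratio of 3.24, 4.33, 3.52 and 5.07. The mean was 4.04 ± 0.83 (SD, n = 4; exact permutation test of signs, two-sided, p = 0.13; higher in 4 of 4 libraries). The 5′ UTRs with 6.17 ± 1.42 and the 3′ UTRs with 3.82 ± 1.44 CPM per kb lay between. By share, 39.9% ± 11.3 of the events were in coding sequence and 44.1% ± 12.1 in introns, which are much longer. Replicates 2 and 4 had the larger coding shares, 43.9% and 54.0%, and replicates 1 and 3 the larger intron shares, 55.6% and 52.1%. Intron positions within 100 nt of an exon took 11.2% ± 2.10 of the intron events and 7.85% of the intron length. Pooled, all 56 genes had more events per kb in coding sequence than in intron, against 71.1% of the 16484 protein-coding genes with introns and at least 1 event, most of which had fewer events. Of the 21 genes with at least 50 coding events, 14 (66.7%) did so in each of the 4 libraries, against 73.8% of the 1048 protein-coding genes tested in the same way. The rest, KPNB1, NUP210, TNPO2, RANGAP1, NUP98, NUP214 and XPO5, each had no coding event in replicate 3, the library of lowest depth. KPNB1 had no intron event there either.

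**Figure D3:**
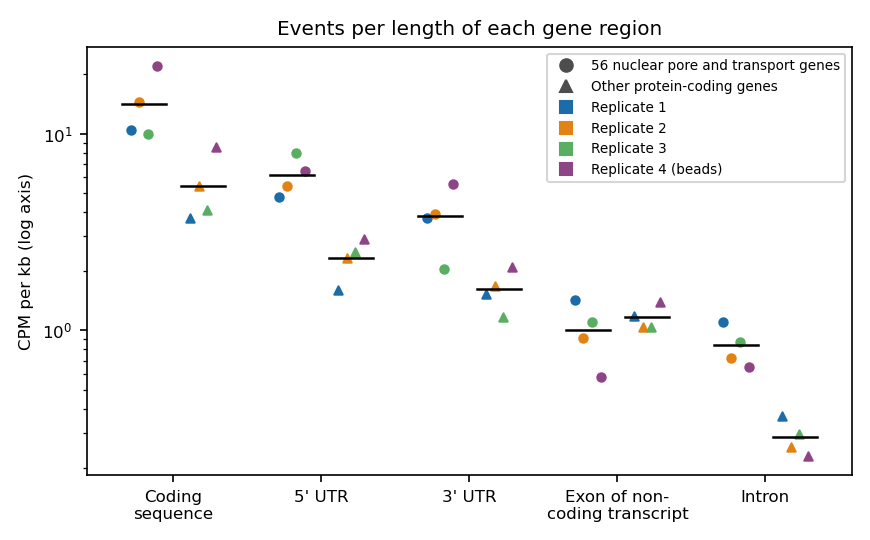
CPM per kb of each gene region (log y axis) in the 56 nuclear pore and transport genes (circles) and in other protein-coding genes (triangles), with a point per library in colour and the mean as a bar. The 56 genes lie above the others in coding sequence (14.2 against 5.44 CPM per kb) and in introns (0.839 against 0.289 CPM per kb).

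Compared with other protein-coding genes, the transport genes had a larger coding share but no larger ratio of coding to intron density. The coding share was 10.1, 13.5, 9.45 and 13.2 percentage points above that of the others, whose mean was 28.4% ± 9.59. The mean difference was 11.6 ± 2.07 percentage points (SD, n = 4; exact permutation test of signs, two-sided, p = 0.13; higher in 4 of 4 libraries). The log2 ratio of coding to intron density, however, was 0.10, 0.07, 0.25 and 0.14 below that of the others. The mean difference was -0.14 ± 0.08 (exact permutation test of signs, two-sided, p = 0.13; lower in 4 of 4 libraries), and it was -0.02 where positions shared with another gene were left out. Both coding sequence and introns of the transport genes were thus above those of the others per kb.

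The pentamer GAAGA was more frequent near coding crosslinks than over all coding positions of these genes. It lay within 5 nt upstream to 30 nt downstream of 16.6%, 16.5%, 12.6% and 16.6% of the coding events in replicates 1 to 4, against 9.52% of all coding positions of the 56 genes. Replicate 3 was the lowest, with 26 of 207 coding events. The log2 ratio was 0.70 ± 0.20 (SD, n = 4; exact permutation test of signs, two-sided, p = 0.13; higher in 4 of 4 libraries). In other protein-coding genes the share was 16.5% ± 1.18 of the events and 8.82% of the positions, so the pentamer near crosslinks was no higher in the transport genes. The difference was -0.91 ± 0.85 percentage points (exact permutation test of signs, two-sided, p = 0.13; lower in 4 of 4 libraries). Its direction turned to 0.16 percentage points where each position was counted once and to 0.51 for events inside clusters. For GANGA, the transport genes had 20.5%, 22.6%, 15.9% and 22.6% of coding events and the others 25.8%, 26.0%, 24.2% and 26.2%, so the groups did not overlap. GANGA lay near 14.8% and 16.5% of their coding positions.

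**Figure D4:**
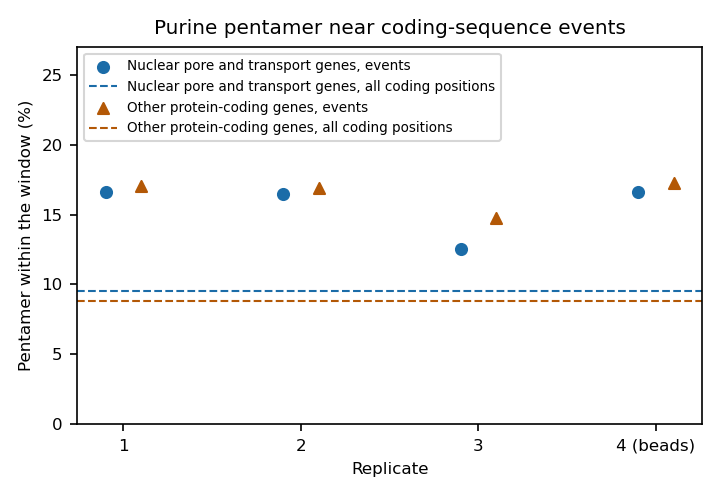
Share of coding-sequence events with the pentamer GAAGA within 5 nt upstream to 30 nt downstream (y axis, percent) in each replicate, in the 56 nuclear pore and transport genes (circles) and in other protein-coding genes (triangles), with dashed lines for the share of all coding positions. The points lie above their lines of 9.52% and 8.82% in every library, and the circles of replicate 3 are the lowest at 12.6%.

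The pentamer was not spread evenly over the genes. RANGAP1 had the most GAAGA per kb of its canonical coding sequence, 10.8 per kb from 19 motifs, followed by IPO8 with 9.64, NUP50 with 8.55, IPO7 with 7.71 and TPR with 7.34. Of these, RANGAP1 and TPR had 40.2 and 45.6 events per kb of coding sequence, but IPO8 had 6.24. Across the 56 genes, coding events per kb and GAAGA per kb had a Spearman correlation of 0.30, and coding events per kb and the share of Asp and Glu codons one of 0.37. These are descriptions across genes in the same libraries, and genes are not replicates. Among the 21 genes with at least 50 coding events, the share of events near GAAGA was above the share of coding positions in 18 (85.7%), against 72.2% of the 1060 protein-coding genes with as many coding events. In IPO7 it was 42.5% of the coding events against 16.9% of the positions, in RANGAP1 29.6% against 16.4% and in NUP153 24.1% against 8.49%. The 3 exceptions were KPNB1 with 7.52% against 9.09%, NUP188 with 5.15% against 6.21% and NUP214 with 5.08% against 5.57%. KPNB1 was therefore among the densest coding sequences with GAAGA at fewer of its events than of its positions.

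TPR and RANGAP1 show how the events lie along a coding sequence. In steps of 150 nt, events were found over the whole of TPR, with at most 17 in any of its 48 steps. The 28 steps with a GAAGA (58.3%) held 60.3% of its 330 events on the canonical transcript, and the highest step, of nucleotides 2101 to 2250, held none. In RANGAP1, the highest step, of nucleotides 1051 to 1200, held 20 of 71 events and 11 of 19 motifs. This is the step of the window of exon 11 shown above, with 1, 8, 0 and 11 events in replicates 1 to 4. The 7 steps of RANGAP1 with a GAAGA (58.3%) held 80.3% of its events. Over all 56 genes, the first, middle and last parts of equal length held 32.4% ± 4.47, 41.1% ± 11.98 and 26.6% ± 10.0 of the coding events. In replicate 3 the middle part held 58.9%.

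**Figure D5:**
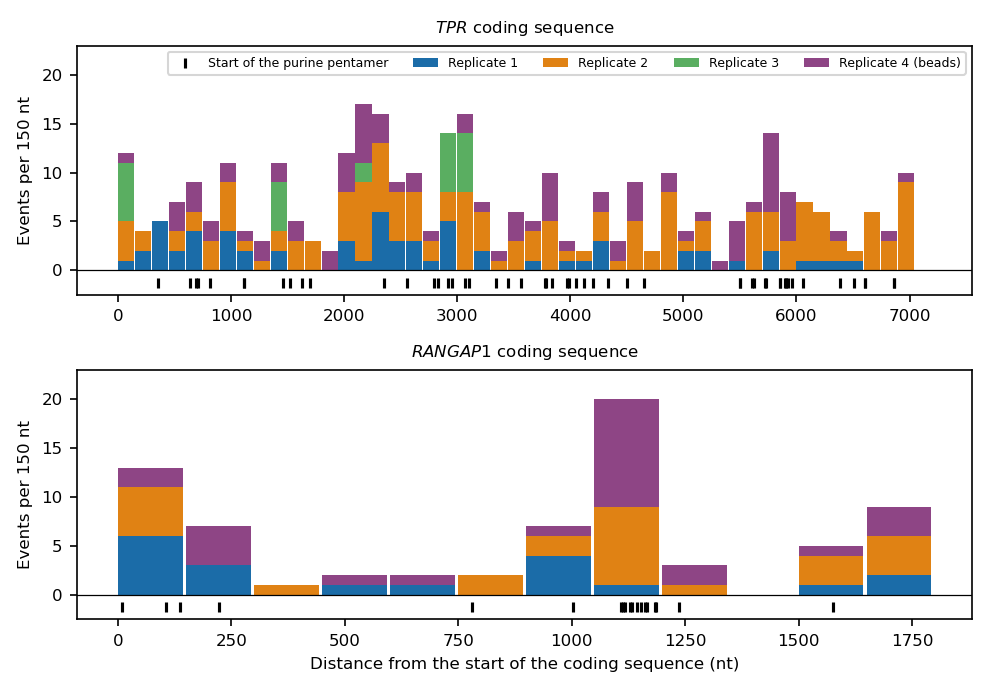
Events per 150 nt (y axis) along the canonical coding sequences of TPR and RANGAP1 (x axis, distance from the start in nt), stacked by library, with ticks at each GAAGA. TPR has events over its whole length, with at most 17 in a step, while RANGAP1 has 20 of its 71 events in the step that holds 11 of its 19 motifs.

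Read as codons, GAAGA in the first frame starts with the Glu codon GAA and goes on to Glu or Asp. In the canonical coding sequences of the 56 genes, 438 GAAGA motifs (68.4%) were in this frame, 24.2% in the frame that holds the Lys codon AAG, and 7.34% in the frame that holds the Arg codon AGA. The pairs of a coding event and a motif in its window fell on the Glu frame in 74.8% ± 3.00. Over the 10 codons from each crosslinked codon on, Asp and Glu codons made up 14.7% ± 1.09 at events against 11.9% at all coding positions. Replicates 1 to 4 had log2 ratios of 0.25, 0.25, 0.27 and 0.46, with a mean of 0.31 ± 0.10 (SD, n = 4; exact permutation test of signs, two-sided, p = 0.13; higher in 4 of 4 libraries). Lys and Arg codons gave a mean log2 ratio of 0.14 ± 0.16 (exact permutation test of signs, two-sided, p = 0.13), also higher in 4 of 4 libraries. Their values in replicates 1 to 4 were 0.01, 0.09, 0.37 and 0.07, so in replicate 3 they were above Asp and Glu. For Asp and Glu over 5 codons the mean was 0.11 ± 0.23, higher in 3 of 4 libraries, with replicate 3 at -0.19.

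The clusters held 898 events, 12.6% of all events on the 56 genes. A cluster was found in 21 genes (37.5%), against 11.3% of all protein-coding genes. Of the 55 clusters, 37 were in coding sequence, 13 in introns, 4 in the 5′ UTR and 1 in the 3′ UTR, and the median cluster had 11 events. GAAGA lay in the 36-nt window of 12 of the 37 coding clusters (32.4%), of 1 intron cluster and of 2 clusters in the 5′ UTR. Of the 2566 clusters in coding sequence of any protein-coding gene, 23.4% held it. The difference was not tested. Few clusters were shared by all libraries: 6 of the 55 had events in each. Replicate 2 gave more than 50% of the events in 17 clusters and replicate 3 in 13, although replicate 3 was the smallest library. Of the 7 coding clusters that replicate 3 led in this way, 6 had more than 50% of their events at a single position and 1 held GAAGA. Of the other 30 coding clusters, 0 had a single position of this kind and 11 held GAAGA.

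Genes of the same pathway outside the list had fewer events by their median. All 21 other genes of the pore and of transport that were listed by function were matched. Their median was 32 events (range 1 to 396), against 116.5 in the list and 15 over all protein-coding genes. At least 100 events were found on 4 of the 21, against 12% of all protein-coding genes. At least 200 were found on 1 of them, against 3.49% of all. That gene was RANBP17, a relative of XPO7, with 191, 130, 34 and 41 events, of which 378 were in introns and 12 in coding sequence. MCM3AP, of mRNA export, had 134 events and 12.8 per kb of coding sequence, and AHCTF1, which links the Y complex to chromatin, had 104 events. NXT1, the partner of NXF1, had 1 event.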

How the data were processed

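The authors demultiplexed the reads, collapsed PCR copies by random barcode, mapped them with STAR to GRCh38 (Gencode 27, at most 2 mismatches), kept unique mappers and assigned the crosslink to the base preceding each read. The version of STAR is not given in the sources used here. The deposited position lists hold cDNA counts by position and strand, unnormalised, and the deposited clusters (iCount, false discovery rate below 0.05) hold summed counts of the pooled libraries. The pooled positions added up exactly from the 4 libraries.

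Events were placed with GENCODE 44 on hg38, later than the authors' version, and counted for every protein-coding gene spanning them on the same strand. Within a gene, coding sequence came first, then 3′ UTR, 5′ UTR, exon of a non-coding transcript and intron. CPM used each library's total, 125694 to 604816 events, so 1 event in the smallest library is 7.96 CPM. Differences over libraries were tested by exact permutation of their signs, two-sided. Named genes were those with the most exonic events, the highest and lowest coding densities, the most intron events, the fewest events, every gene with a cluster and the Ran cycle. Members, lists and tests were chosen with earlier results of these data known. The counting was run on simulated events, and the region counts of 56 of 56 genes were recovered. The same region labels placed and counted these events, so this does not test the labels or the annotation. Motif windows recomputed separately at 1120 positions were equal at 1120. The tools were matplotlib 3.10.9, scipy 1.17.1, pandas 2.3.3 and numpy 2.4.6 in Python 3.11.15. Control libraries were not used here, no amino acid sequence is shown, and some cluster windows are not reported here.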

Additional observations from a re-analysis of the deposited data

Results flagged for a closer look

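Of 45 checks for a library far from the others, 5 were positive, and chance alone gives about 1 in 20. For the GAAGA pentamer, the log2 ratio of its share at coding events over that at coding positions was 0.40 in replicate 3 and 0.79 to 0.81 in the others, and the difference from other genes was -2.17 percentage points in replicate 3 and -0.66 to -0.39 in the others. For Asp and Glu codons, the log2 ratio was 0.46 in replicate 4 and 0.25 to 0.27 in the others. KPNA4 had 223 CPM in replicate 3 and 84.3 to 105 in the others, and its mean was 92.7 CPM without that library. Of its 28 events in replicate 3, 11 and 9 were in its 2 intron clusters, the first of them inside SCARNA7. TPR had 534 CPM in replicate 4 and 255 to 301 in the others.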

How the results depend on the processing

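The 6 tested results other than the GAAGA difference from other genes kept their direction under each alternative run. With 4 libraries no test could give a p below 0.13, and with 3 libraries none below 0.25, so no threshold was crossed. The coding share difference ranged from 10.4 to 14.0 percentage points, the coding over intron log2 ratio from 3.69 to 4.30, and the GAAGA log2 ratio from 0.45 with GANGA in its place to 1.56 for events inside clusters. The GAAGA difference from other genes reversed to 0.16 percentage points with each position counted once and to 0.51 for events inside clusters, and the cause was not tested. The number of genes with at least 200 events was 9 in the main count, 32 with a minimum of 100 events and 1 with a minimum of 400. It was 7 where positions shared with another gene were left out and 2 with each position counted once. For exonic events alone it was 3 (5.36% of the genes, against 0.699% of all). Leaving out 1 library gave 1 to 7, by construction from fewer events. For the named genes, 18 of 60 CPM values moved by over 1 SD when positions were counted once or shared positions were left out. Leaving out a library changed 3 of 120 CPM values by over 1.5 times, those of RAN, NUP37 and AAAS given above. The depth limits single libraries: 9 genes had no event in replicate 3. No paired analysis was possible because all libraries belong to 1 group and share no number with another group, while the differences between sets of genes were taken within each library.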
